A study of Rattus norvegicus with 78 samples.

Results

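A set of autophagy genes was followed across the postnatal brain of rats whose mothers drank an antidepressant. The 10 genes, of 9667 with a name and 26419 features measured, are Vmp1, Tbc1d14, Map1lc3a, Map1lc3b, Becn1, Sqstm1, Gabarap, Gabarapl2, Atg5 and Atg7. Each was read from the feature of its symbol with the highest mean log2 intensity. Vmp1, Tbc1d14 and Map1lc3a were chosen by their large differences in intensity between exposed and control rats, so these differences are described here without a test. The other 7 were taken in as genes of the same pathway and were tested.

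All animals were male rats of a line selectively bred as Low Responders, animals that explore little in a new environment. Exposed offspring came from dams given 10 mg per kg of paroxetine each day in the water from a week before mating until weaning at postnatal day 21 (P21). Paroxetine is an antidepressant that blocks serotonin reuptake. Control dams drank plain water, and no outbred or high-responding line was compared. Hippocampus and amygdala were taken at P7, P14, P21 and P75. The drug had ended at weaning for the P75 animals. Crossing region, age and treatment gave 16 groups of 5 arrays, or of 4 for exposed pups at P7 in either region. The question at each age was whether transcript levels differed after exposure, and in which region.

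In autophagy, a cell wraps proteins or organelles in a newly made membrane sac, the autophagosome, which fuses with lysosomes so that the content is broken down. Membrane growth starts at the endoplasmic reticulum, lipid-linked proteins of the Map1lc3 and Gabarap families coat the sac, and adaptor proteins bring in the cargo. Neurons depend on it throughout life, and mice lacking Atg5 or Atg7 in neural cells accumulate protein inclusions and lose neurons. Many of its genes share a transcriptional regulator, Tfeb, which binds a short palindrome containing CACGTG.

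The promoters of 3 members are printed to set genes with a shared course beside one without it. Vmp1 and Sqstm1 were both lower in the exposed hippocampus at P7 and higher at P75, and Atg5 passed no test there. The sequences are the 250 bases before the annotated start, from RefSeq on build GRCr8, in the direction of transcription, with any CACGTG in capitals. Vmp1 lies at chr10:72002320-72002569 on the minus strand, Sqstm1 at chr10:35037751-35038000 on the minus strand and Atg5 at chr20:49380585-49380834 on the plus strand.
Vmp1: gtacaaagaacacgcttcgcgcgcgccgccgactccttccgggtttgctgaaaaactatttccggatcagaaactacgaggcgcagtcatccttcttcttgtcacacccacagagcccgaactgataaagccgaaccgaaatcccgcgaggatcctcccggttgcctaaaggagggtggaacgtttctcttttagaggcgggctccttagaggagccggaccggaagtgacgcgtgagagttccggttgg
Sqstm1: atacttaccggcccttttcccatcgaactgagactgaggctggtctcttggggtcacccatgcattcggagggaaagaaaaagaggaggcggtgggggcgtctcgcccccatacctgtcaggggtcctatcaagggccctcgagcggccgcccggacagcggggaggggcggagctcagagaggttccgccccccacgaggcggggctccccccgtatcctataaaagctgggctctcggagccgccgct
Atg5: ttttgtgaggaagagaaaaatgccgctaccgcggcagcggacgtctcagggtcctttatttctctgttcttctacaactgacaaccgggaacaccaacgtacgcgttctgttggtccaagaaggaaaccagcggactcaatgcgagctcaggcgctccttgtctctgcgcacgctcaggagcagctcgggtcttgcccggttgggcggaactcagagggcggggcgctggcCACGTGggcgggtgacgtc

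CACGTG, which reads the same on both strands, was searched in windows of 300 bases around the start. Of the 10 promoters listed for 8 members (Tbc1d14 has 3), only that of Atg5 held it, from 19 to 14 bases before the start. Among 33469 rat promoters 6.42% held it. The longer palindrome TCACGTGA, which contains it, was in 0.777% of all promoters and in 0 of the 10. Such matches describe these windows and no more. Map1lc3a and Becn1 were not matched to a promoter.

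Within groups, arrays correlated with r from 0.926 to 0.985. Levels below are log2 intensities and differences are exposed minus control on that scale, ± the standard error of the limma fit over the 39 arrays of a region. A gene is said to have risen or fallen only where its adjusted p was under 0.05. In hippocampus the first principal component (39.1% of the variance) placed P14 controls 1 to 3 at 47.5 to 51.4 and controls 4 and 5 at 82.2 and 92.6. On the second component the exposed P7 arrays 1 and 2 stood at -11.2 and -11.6, and arrays 3 and 4 at -58.1 and -57.3. In amygdala the exposed P75 arrays spread from -67.1 to 0.298 on the first component (27.7%), with controls of that age at -8.37 to 12.8. The array's control probe of random sequence also followed the groups. In hippocampus its mean was 5.46 in P7 controls and 5.73 in exposed pups, then 5.50 and 5.60 at P14, 5.79 and 5.57 at P21, and 5.81 and 5.61 at P75. The spread of an array, the interquartile range of its log2 intensities, also followed the groups in hippocampus. At P7 it was 3.16 to 3.25 in controls and 2.78 to 2.799 in exposed pups. At P14 it was 3.07 to 3.25 and 2.86 to 2.88. At P21 the values were 2.73 to 2.76 and 2.86 to 2.92, and at P75 2.71 to 2.75 and 2.91 to 3.005. In amygdala the groups overlapped in spread at P14 and P75 but not at P7 or P21. The cause of these spreads was not tested. The labels give no array batch, so a batch and treatment cannot be told apart. Litters are not labelled either, and p-values therefore cover the spread between these arrays alone. Tissue markers came from a list for hippocampus and a list for amygdala and its neighbours. In controls Lypd1, Nr2f2 and Ppp1r1b of the latter list were higher in amygdala by 3.28, 2.62 and 1.64. The hippocampal gene Grik4 was lower there (-1.22). Isl1 (5.65 in hippocampus, 5.72 in amygdala) and Tdo2 (5.21 and 5.74) did not mark a region by level.

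**Figure D1:**
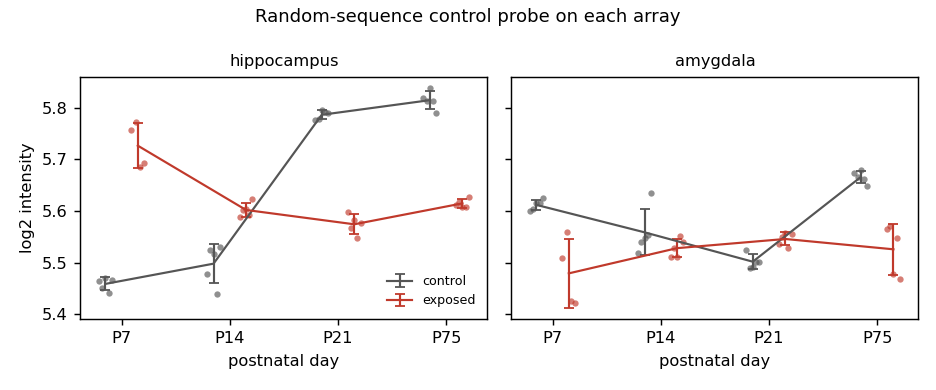
Log2 intensity of the random-sequence control probe on each array (points) by postnatal day in hippocampus and amygdala, grey for control and red for exposed, with group means ± SD joined by lines. In hippocampus the exposed mean lies above the control mean at P7 and P14 and below it at P21 and P75.

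Vmp1 showed the widest swing of the set. It encodes a membrane protein of the endoplasmic reticulum that is needed for the autophagosome to form and to separate from the reticulum. At P7 the 5 control hippocampi had 11.54, 11.69, 11.49, 11.68 and 11.52, and the 4 exposed had 7.90, 8.18, 8.25 and 8.0. At P14 the controls had 11.02, 11.11, 11.04, 11.28 and 11.002, against 8.29, 8.56, 8.62, 8.28 and 7.94 in exposed pups. Every exposed array of these ages lay more than 2 log2 units below every control array. The differences were -3.50 ± 0.17, an 11.3-fold lower level, and -2.75 ± 0.16, 6.74-fold lower. By size the P14 difference ranked 1 among all 26419 features and the P7 difference 14.

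By P21 the hippocampal groups had met. Vmp1 was 8.19, 8.72, 8.30, 8.31 and 8.65 in controls and 8.37, 8.40, 8.63, 8.31 and 8.06 in exposed rats (-0.08 ± 0.16). At P75 controls had 8.29, 7.69, 7.69, 8.62 and 8.51 and exposed rats 9.80, 9.43, 9.89, 10.09 and 9.92. The groups overlapped at P21 and not at all at P75, where the exposed level was 3.17-fold higher (1.67 ± 0.16). In order of level, P7 controls, P14 controls and P75 exposed rats each stood apart from the next group, and the remaining 5 groups (means of 8.08 to 8.44) overlapped their neighbours. From P7 to P75 the change in Vmp1 was -3.42 ± 0.16 in controls and 1.75 ± 0.17 in exposed rats.

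In amygdala Vmp1 was higher after exposure at every age. Control arrays at P7 had 10.21, 10.06, 10.18, 10.31 and 10.16, and exposed ones 10.77, 11.004, 10.73 and 10.42. At P75 the controls had 9.75, 9.78, 9.57, 9.82 and 9.92 and the exposed rats 11.14, 10.92, 11.51, 11.28 and 11.54. The 2 groups did not overlap at any of the 4 ages. The differences were 0.55 ± 0.13 at P7, 0.80 ± 0.12 at P14, 0.92 ± 0.12 at P21 and 1.51 ± 0.12 at P75. The P75 difference ranked 13 by size among the named genes.

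Tbc1d14 had nearly the same course in hippocampus. Its protein, which has a Rab GTPase-activating domain, acts on the recycling endosomes that supply membrane to autophagosomes. At P7 the control hippocampi had 11.76, 11.70, 12.04, 11.99 and 11.58 and the exposed 8.18, 7.90, 7.87 and 8.54, a difference of -3.69 ± 0.20 or 12.9-fold. At P14 the controls had 11.07, 10.79, 10.86, 11.37 and 11.44 and the exposed 8.61, 8.38, 8.36, 8.68 and 8.04 (-2.69 ± 0.19). No exposed array came within 2 log2 units of a control array at either age. At P21 the groups overlapped (0.01 ± 0.19). At P75 the exposed arrays (8.41, 8.75, 8.95, 9.28 and 8.64) were all above the controls (8.04, 8.34, 8.03, 8.31 and 7.80), by 0.70 ± 0.19.

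The amygdala showed no such early gap. Tbc1d14 differed by 0.00 ± 0.22 at P7 and -0.05 ± 0.20 at P14, with overlapping arrays, and then by 0.77 ± 0.20 at P21 and 1.07 ± 0.20 at P75. At P75 the amygdalar controls had 9.57, 9.86, 9.20, 9.06 and 9.46 and the exposed rats 9.99, 10.36, 10.91, 10.58 and 10.64, without overlap. A second feature of Tbc1d14, dimmer (mean 8.38 against 9.59), disagreed in size. There the hippocampal differences were -0.97 ± 0.20 at P7 and -0.47 ± 0.19 at P14, and the amygdalar ones 0.07 ± 0.23 at P21 and 0.59 ± 0.23 at P75, with overlapping arrays in all of these but the hippocampal P7 pair. The mean over both features gave -2.33 and -1.58 in hippocampus at P7 and P14 and 0.42 in amygdala at P21. The probes of the 2 features cannot be compared in level.

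Map1lc3a, one of the proteins that are attached to lipid and coat the growing autophagosome, went through its lowest and highest contrast in the youngest and oldest hippocampi. At P7 the controls had 12.04, 12.40, 12.07, 12.05 and 12.16 and the exposed pups 10.75, 10.67, 10.67 and 10.78 (-1.43 ± 0.12, 2.69-fold lower). At P75 the controls had 10.05, 9.87, 9.94, 9.89 and 10.02 and the exposed rats 11.64, 11.40, 11.62, 11.77 and 11.32 (1.60 ± 0.11, 3.03-fold higher). Both contrasts were free of overlap, whereas at P14 the arrays overlapped (-0.19 ± 0.11, or -0.41 without controls 1 to 3). In amygdala the order was the reverse, with exposed arrays above controls at P7 (0.41 ± 0.11) and below them at P14 (-0.46 ± 0.11) and P75 (-0.61 ± 0.11). With the random probe as a covariate, the hippocampal differences of Vmp1 were -2.69, -2.44, -0.72 and 1.06 at the successive ages. Those of Tbc1d14 were then -2.84, -2.36, -0.67 and 0.065, and Map1lc3a differed by -1.02 at P7 and 1.29 at P75.

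**Figure D2:**
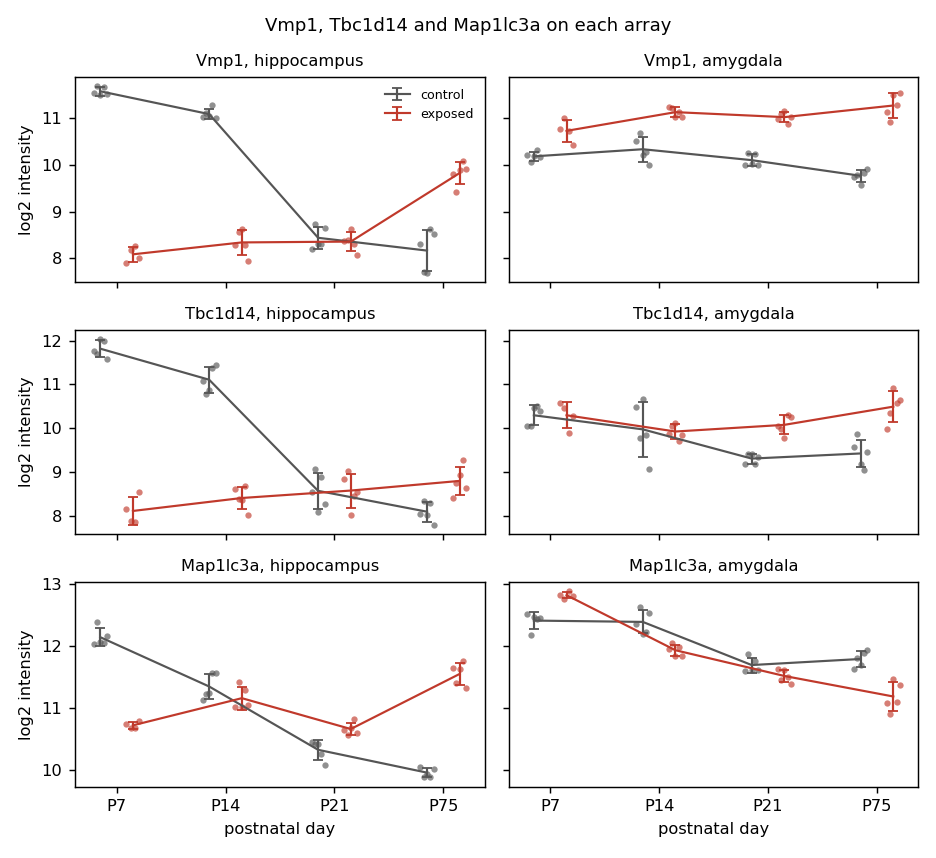
Log2 intensity of Vmp1, Tbc1d14 and Map1lc3a on each array (points) by postnatal day, hippocampus on the left and amygdala on the right, grey for control and red for exposed, with group means ± SD joined by lines. The hippocampal controls of Vmp1 and Tbc1d14 drop between P14 and P21 to near the level that exposed rats had at P7.

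The authors' deposited table for hippocampus at P7 lists Vmp1, under its older symbol Tmem49, 11.3-fold down, Tbc1d14 12.9-fold down and Map1lc3a 2.69-fold down. The authors' deposited table for the same age also holds Becn1 (3.01-fold down) and Sqstm1 (2.58-fold down). At P14 the authors' deposited table lists Vmp1 and Tbc1d14 as 6.74-fold and 6.46-fold down, and at P75 Map1lc3a as 3.03-fold up. For amygdala the authors' deposited table lists Gabarapl2 at P14 (1.58-fold down) and Vmp1 at P21 and P75 (1.9-fold and 2.84-fold up). These tables keep features past a Bonferroni-corrected p of 0.05 and a fold of 1.5.

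Among the 7 members not chosen for their difference, 5 fell in the exposed hippocampus at P7, 3 fell at P14, 2 rose at P21 and 5 rose at P75. Calls were common on these arrays. At P7, 53.4% of all features were called, 25.1% higher and 28.3% lower, and at P14 38.2%, 16% higher and 22.2% lower. At P21 26.4% were called, with 15.8% of all features higher, and at P75 42.4%, 23.7% higher and 18.6% lower. Bright features were called more often still, and among the brightest 10% the shares were 75.4%, 62%, 55.2% and 76.3% at the successive ages. That class includes Sqstm1, Gabarap and Gabarapl2 by their mean over all arrays. The members' median differences were -0.58, -0.34, 0.27 and 0.64, against 0.07, 0.01, 0.04 and 0.02 over all features. Among the brightest 10% of features the medians were -0.25, -0.07, 0.28 and 0.42, with the same order of signs as the members. Within hippocampal groups the random probe had an SD of only 0.008 to 0.044, so as a covariate it can hardly be separated from the groups. A call lost in that fit therefore does not decide what the probe accounts for. With the random probe as a covariate, limma called 1, 3, 0 and 0 of the 7 at these ages (3, 3, 0 and 3 at an unadjusted p under 0.05), and 1712, 4624, 2 and 114 of all features. The differences whose calls were lost at P7 were then -1.54 for Becn1, -0.88 for Sqstm1, -0.33 for Gabarap and -0.42 for Gabarapl2 (adjusted p from 0.0615 to 0.664). At P75 they were 1.02 for Map1lc3b, 0.95 for Becn1, 0.60 for Sqstm1, 0.61 for Gabarap and 0.39 for Gabarapl2 (adjusted p from 0.119 to 0.501).

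Of the tested members, Becn1 followed Vmp1 most closely. Its protein, beclin, is a subunit of the lipid kinase complex that marks the membrane where an autophagosome forms. Control hippocampi at P7 had 9.86, 10.13, 10.24, 10.15 and 10.10, and exposed ones 8.64, 8.42, 8.67 and 8.30. At P75 the controls had 8.78, 9.38, 9.16, 8.67 and 8.57 and the exposed rats 9.85, 10.15, 9.84, 9.98 and 9.66. Neither pair of groups overlapped. By limma Becn1 fell by 1.59 ± 0.15 at P7 (adjusted p = 3.94e-11) and by 1.05 ± 0.14 at P14 (adjusted p = 3.13e-07), differed by -0.07 ± 0.14 at P21 (adjusted p = 0.758), and rose by 0.98 ± 0.14 at P75 (adjusted p = 1.10e-06). In amygdala it rose by 0.66 ± 0.10 at P21 (adjusted p = 1.59e-05) and 0.63 ± 0.10 at P75 (adjusted p = 1.91e-05). At P7 the amygdalar difference of Becn1 was 0.30 ± 0.11 (adjusted p = 0.0824), although the exposed arrays, at 10.01 to 10.19, were all above the controls, at 9.70 to 9.97.

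Sqstm1 encodes an adaptor that binds ubiquitin-tagged cargo and carries it into the autophagosome, and it is degraded along with that cargo. At P7 the control hippocampi had 12.57, 12.94, 12.66, 12.63 and 12.42 and the exposed 11.26, 11.25, 11.43 and 11.15. At P14 the controls had 12.47, 12.24, 12.47, 12.85 and 12.88 and the exposed 11.39, 11.70, 11.83, 11.55 and 11.75. The 2 P14 controls that stand apart on the first component, 4 and 5, were the highest. Sqstm1 fell by 1.37 ± 0.13 at P7 (adjusted p = 4.03e-11) and by 0.94 ± 0.12 at P14 (adjusted p = 1.84e-07). Without controls 4 and 5 the P14 difference was -0.75, and without controls 1 to 3 it was -1.22. At P21 the exposed arrays were all above the controls by a difference that did not pass (0.32 ± 0.12, adjusted p = 0.0544), and at P75 Sqstm1 rose by 0.96 ± 0.12 (adjusted p = 1.20e-07). The P21 difference did pass by the methods' t-test (adjusted p = 0.0423) and with eBayes with trend and robust (adjusted p = 0.0186). In amygdala limma called Sqstm1 at P75 (0.35 ± 0.10, adjusted p = 0.00882), with overlapping arrays. That call was lost with only the groups compared (adjusted p = 0.122), with the mean over the gene's features (0.23, adjusted p = 0.0685) and with the random probe as a covariate (0.11, adjusted p = 0.647). A second feature of Sqstm1 disagreed in part. In hippocampus it fell at P7 (-0.47, adjusted p = 0.00327) and rose at P75 (0.60, adjusted p = 0.000212), but it differed by -0.03 at P14 (adjusted p = 0.883) and rose at P21 (0.36, adjusted p = 0.0305). In amygdala at P75 it differed by 0.11 (adjusted p = 0.568).

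Map1lc3b, the relative of Map1lc3a most used to mark autophagosomes, fell and rose at the same hippocampal ages as Becn1. Controls at P7 had 11.04, 11.07, 10.95, 10.88 and 10.79 and exposed pups 9.69, 9.49, 9.36 and 9.01. It fell by 1.56 ± 0.13 (adjusted p = 5.01e-13) and, at P14, by 0.60 ± 0.12 (adjusted p = 0.000119), with no overlap at either age. At P75 it rose by 0.70 ± 0.12 (adjusted p = 1.03e-05). In amygdala the exposed P7 arrays, at 10.99 to 11.17, were above the controls, at 10.56 to 10.75, and Map1lc3b rose (0.38 ± 0.11, adjusted p = 0.0358), a call lost without control 2 or 5 or exposed 2, 3 or 4 (adjusted p up to 0.116), after quantile normalization (0.28, adjusted p = 0.110), with only the groups compared (adjusted p = 0.139) and with the random probe (0.12, adjusted p = 0.742). It fell there at P21 (-0.45 ± 0.11, adjusted p = 0.00206).

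Gabarap and Gabarapl2 belong to the second branch of the coat proteins, which is held to act later, as the sac matures. Their hippocampal differences were smaller. Gabarapl2 had 11.08, 11.02, 10.95, 11.16 and 11.04 in P7 controls and 10.39, 10.42, 10.61 and 10.47 in exposed pups, and it fell by 0.58 ± 0.10 (adjusted p = 7.07e-06). Gabarap fell by 0.37 ± 0.11 at P7 (adjusted p = 0.00446), which did not pass after quantile normalization (-0.02, adjusted p = 0.903) or without exposed arrays 3 and 4 (-0.33, adjusted p = 0.0536). At P14 neither passed by limma, with -0.21 ± 0.09 for Gabarapl2 (adjusted p = 0.0769) and -0.06 ± 0.10 for Gabarap (adjusted p = 0.665). Without controls 1 to 3 both fell there (-0.32, adjusted p = 0.0274 and -0.32, adjusted p = 0.0360). Gabarapl2 also passed without the dimmer 50% of features (adjusted p = 0.0335). At P21 Gabarap rose by 0.33 ± 0.10 (adjusted p = 0.0179, or 0.0596 without exposed array 4) and Gabarapl2 by 0.38 ± 0.09 (adjusted p = 0.00279), neither of which passed after quantile normalization. At P75 Gabarap rose by 0.64 ± 0.10 (adjusted p = 5.81e-06) and Gabarapl2 by 0.50 ± 0.09 (adjusted p = 4.65e-05), with exposed arrays above all controls.

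In amygdala the differences of this pair had the opposite sign to those in hippocampus at P21 and P75, but the same sign at P14. At P7 the amygdalar differences by limma were -0.05 for Gabarapl2 (adjusted p = 0.826) and -0.002 for Gabarap (adjusted p = 0.993). Gabarapl2 at P14 had 11.69, 11.73, 11.66, 11.90 and 11.81 in controls and 11.16, 11.18, 10.97, 11.13 and 11.04 in exposed pups. It fell there by 0.66 ± 0.10 (adjusted p = 2.31e-06), and again at P21 (-0.48 ± 0.10, adjusted p = 0.000405) and P75 (-0.37 ± 0.10, adjusted p = 0.00581). The P75 arrays overlapped, and the call was lost with only the groups compared (adjusted p = 0.133) and by the methods' t-test (adjusted p = 0.0866). Gabarap fell at P14 (-0.32 ± 0.10, adjusted p = 0.0138, or 0.0513 without exposed array 4) and at P75 (-0.56 ± 0.10, adjusted p = 9.03e-05), where the controls spanned 11.20 to 11.49 and the exposed rats 10.53 to 11.16. The P14 call was lost after quantile normalization (-0.21, adjusted p = 0.0759) and with only the groups compared (adjusted p = 0.0831). At P21 Gabarap did not pass by limma (-0.25 ± 0.10, adjusted p = 0.0658), although the exposed arrays were all below the controls. It passed by the methods' t-test (adjusted p = 0.00167) and with only the groups compared (adjusted p = 0.0290). It also passed without the dimmer 50% of features (adjusted p = 0.0323) and with eBayes with trend and robust (adjusted p = 0.0431).

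**Figure D3:**
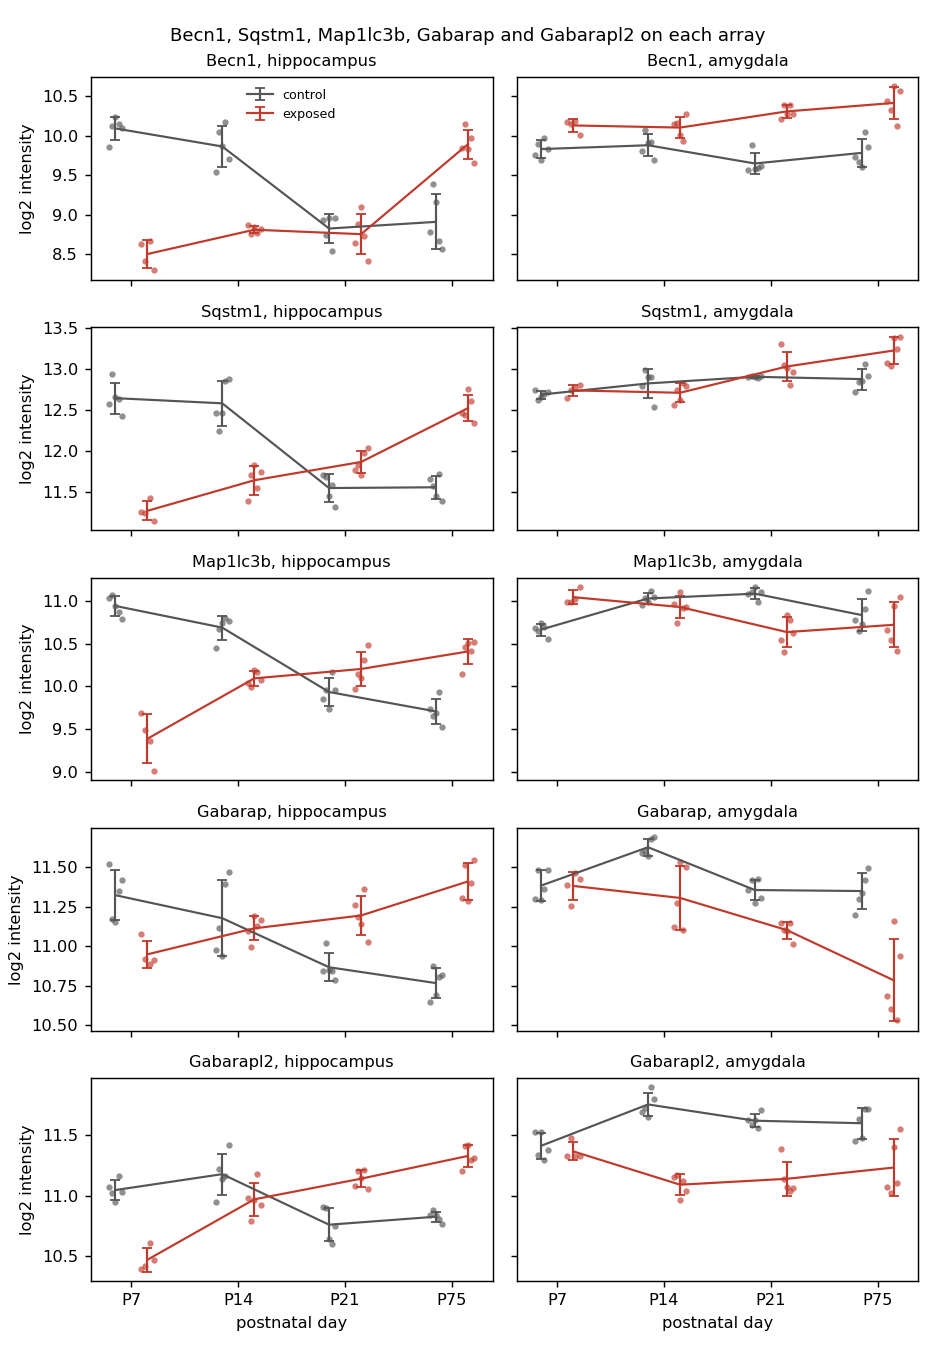
Log2 intensity of Becn1, Sqstm1, Map1lc3b, Gabarap and Gabarapl2 on each array (points) by postnatal day, hippocampus on the left and amygdala on the right, grey for control and red for exposed, with group means ± SD joined by lines. In hippocampus the exposed means start below the controls at P7 and end above them at P75, and in amygdala Gabarap and Gabarapl2 are lower in exposed rats at P75.

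Atg5 and Atg7 stood apart from these. Atg7 is the activating enzyme of both conjugation systems that build the coat, and Atg5 is part of the complex that attaches the coat proteins to lipid. Atg5 was the dimmest member, at the 40.3 percentile of features, and its arrays scattered widely, for example from 5.92 to 7.49 in hippocampal controls at P75. Its hippocampal differences lay between -0.24 ± 0.26 and 0.32 ± 0.26 and passed at no age. In amygdala Atg5 fell at P21 (-0.85 ± 0.31, adjusted p = 0.0420), with overlapping arrays, a call lost without any 1 of 8 arrays (adjusted p up to 0.101), with the replicate number as a block (adjusted p = 0.0523) and with the random probe as a covariate (adjusted p = 0.0635). Atg7, at the 85.3 percentile, passed in none of the 8 comparisons of exposed with control rats by limma (1 at an unadjusted p under 0.05) or by the methods' t-test (0 at an unadjusted p under 0.05). Its differences ran from -0.34 ± 0.17 in hippocampus to 0.37 ± 0.15 in amygdala, both at P14, and the latter had an adjusted p of 0.0548. That amygdalar difference passed after quantile normalization (0.44, adjusted p = 0.0103), with eBayes with trend and robust (adjusted p = 0.0329) and without the dimmer 50% of features (adjusted p = 0.0332). In hippocampus at P75 Atg7 passed after quantile normalization (-0.47, adjusted p = 0.0272).

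In amygdala 1 of the 7 rose at P7, where 7.83% of all features were called and 5.66% were higher. At P14 2 fell (35.8% called, 16.5% higher and 19.3% lower), at P21 1 rose and 3 fell (25.4%, 9.45% and 16%), and at P75 2 rose and 2 fell (21.1%, 9.35% and 11.8%). The members' medians were 0.12, -0.11, -0.25 and -0.11, against 0.08, -0.06, -0.07 and -0.03 over all features. Among the brightest 10% of features they were 0.08, -0.16, -0.14 and -0.05. Becn1 rose at P21 while Map1lc3b, Gabarapl2 and Atg5 fell, and at P75 Becn1 and Sqstm1 rose while Gabarap and Gabarapl2 fell. With only the groups compared in the fit, limma called 0, 1 and 2 of the 7 at P7, P14 and P75 (2, 2 and 4 at an unadjusted p under 0.05).

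**Figure D4:**
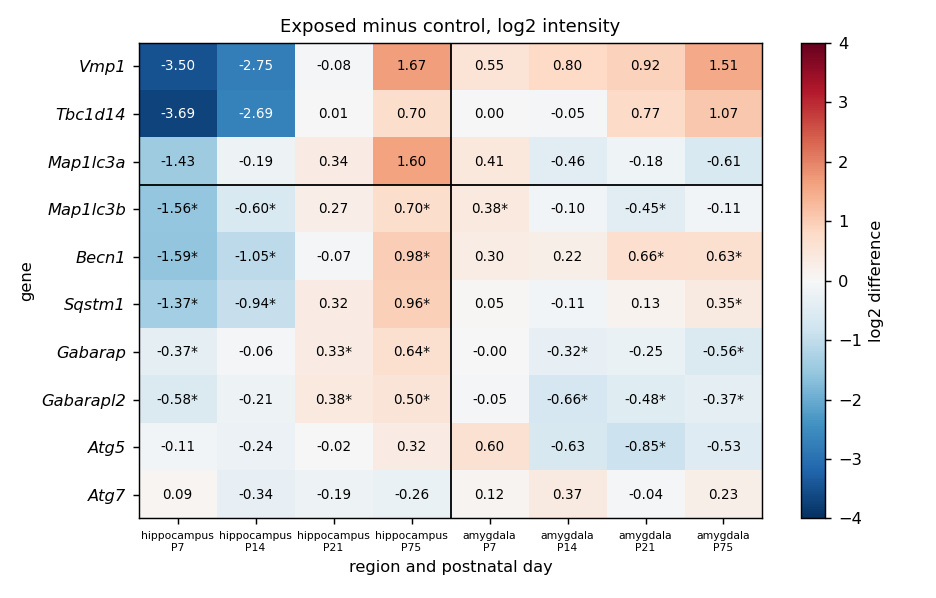
Differences in log2 intensity, exposed minus control, for the 10 genes (rows) in the 8 combinations of region and postnatal day (columns), with blue below and red above 0. Asterisks mark adjusted p under 0.05 among the lower 7 genes, and the upper 3, chosen for their differences, carry no test; Vmp1 runs from -3.50 in hippocampus at P7 to 1.67 at P75.

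Both regions were then set against each other through their exposure differences, since the levels themselves appear to have been normalized by region. At P7 the exposure difference in hippocampus was below that in amygdala for 5 of the 7 (49.4% of all features called either way, 29.4% lower). These were Map1lc3b (-1.94 ± 0.16, adjusted p = 2.01e-16), Becn1 (-1.89 ± 0.18, adjusted p = 5.62e-14), Sqstm1 (-1.42 ± 0.16, adjusted p = 1.17e-11), Gabarapl2 (-0.53 ± 0.13, adjusted p = 0.000565) and Gabarap (-0.37 ± 0.14, adjusted p = 0.0278), the last of which turned to 0.06 after quantile normalization (adjusted p = 0.756) and to 0.14 with the random probe as a covariate (adjusted p = 0.817). Gabarapl2 did not pass after quantile normalization either (-0.13, adjusted p = 0.411). At P75 4 of the 7 were called (36.9% of features, 22.3% higher), all with the higher difference in hippocampus. Gabarap differed most, by 1.21 ± 0.14 (adjusted p = 9.04e-11), and Becn1 did not pass (0.35 ± 0.17, adjusted p = 0.100). After quantile normalization Sqstm1 did not pass either (0.32, adjusted p = 0.0611), and Atg7 did (-0.74, adjusted p = 0.00521). At P14, 5 were called (28.1% of features, 12% higher and 16.1% lower), with Becn1, Sqstm1, Map1lc3b and Atg7 lower and Gabarapl2 higher in hippocampus. At P21, 4 were called (37.6% of features, 23.2% higher and 14.4% lower), where only Becn1 had the lower difference in hippocampus (-0.73 ± 0.17, adjusted p = 0.000461).

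The exposure difference changed with age for 5 of the 7 in hippocampus (63.5% of features called by limma's F test over the 4 ages). The F values were 73.3 for Sqstm1 (adjusted p = 6.87e-14), 67.4 for Map1lc3b (adjusted p = 2.03e-13), 59.9 for Becn1 (adjusted p = 9.56e-13), 27.6 for Gabarapl2 (adjusted p = 1.35e-08) and 17.4 for Gabarap (adjusted p = 1.68e-06). After quantile normalization Gabarap did not pass (F = 2.44, adjusted p = 0.121) and Atg7 did (F = 4.43, adjusted p = 0.0183). With the random probe as a covariate neither Gabarap (adjusted p = 0.255) nor Gabarapl2 (adjusted p = 0.592) passed. In amygdala 5 passed as well (32.7% of features), led by Map1lc3b (F = 9.34, adjusted p = 0.00138). The F test of Atg5 there had an adjusted p of 0.0492. It was lost without any 1 of 29 of the 39 arrays (adjusted p up to 0.116), with the replicate number as a block (adjusted p = 0.0654), after quantile normalization (adjusted p = 0.0682) and with the random probe (adjusted p = 0.125). Gabarapl2 did not pass after quantile normalization (adjusted p = 0.0652). That of Sqstm1 had an adjusted p of 0.0537 and passed with eBayes with trend and robust (adjusted p = 0.0157).

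In hippocampus the change from P7 to P75 had opposite signs in controls and exposed rats for 5 of the 7. These 5 fell in controls (59.8% of features called either way, 30.4% lower) and the same 5 rose in exposed rats (39.1% called, 20.3% higher). Becn1 fell by 1.18 ± 0.14 in controls (adjusted p = 6.43e-09) and rose by 1.39 ± 0.15 in exposed rats (adjusted p = 1.71e-09). Map1lc3b fell by 1.24 ± 0.12 (adjusted p = 2.25e-11) and rose by 1.03 ± 0.13 (adjusted p = 1.95e-08), and Sqstm1 fell by 1.08 ± 0.12 (adjusted p = 1.66e-09) and rose by 1.25 ± 0.13 (adjusted p = 6.90e-10). The fall of Gabarapl2 in controls (-0.22 ± 0.09, adjusted p = 0.0416) turned to 0.18 after quantile normalization (adjusted p = 0.0836), and it did not pass with the replicate number as a block (adjusted p = 0.0524) or with only the groups compared (adjusted p = 0.103). Gabarap passed in neither group after quantile normalization (-0.14, adjusted p = 0.213 in controls and 0.24, adjusted p = 0.0707 in exposed rats). With the random probe as a covariate limma called 0 of the 7 in controls (1 at an unadjusted p under 0.05). The changes in controls were then -1.81 for Map1lc3b, -1.12 for Becn1, -0.50 for Gabarap, -0.44 for Sqstm1 and -0.02 for Gabarapl2 (adjusted p from 0.0642 to 0.992). These changes share the P7 and P75 arrays with the exposure differences above. In amygdala limma called 0 of the 7 in controls (0 at an unadjusted p under 0.05, 25.4% of features called), as did the methods' t-test (2 at an unadjusted p under 0.05). In exposed amygdala 3 rose and 3 fell (37.5% of features, 15.6% higher and 22% lower), among them Sqstm1 (0.49 ± 0.10, adjusted p = 0.000298) and Gabarap (-0.60 ± 0.11, adjusted p = 3.73e-05). Of these 6, Map1lc3b (adjusted p = 0.165), Becn1 (adjusted p = 0.182) and Atg7 (adjusted p = 0.105) did not pass with only the groups compared, nor Becn1 with the replicate number as a block (adjusted p = 0.0547).

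Cell type markers also differed with exposure, some in the members' direction and some not. In tissue fewer cells of a type and less RNA per cell cannot be told apart. In hippocampus at P7, 6 of 7 astrocyte markers fell, and their summed linear intensity was 44772 to 51393 in controls and 14398 to 15137 in exposed pups. Of 8 choroid plexus markers 5 rose, with sums of 2473 to 2853 and 7755 to 9214. Microglial markers fell in 3 of 5 and endothelial markers in 2 of 4. Of 4 neuronal markers 2 rose and 2 fell, and of 6 oligodendrocyte markers 3 rose and 1 fell. Over all features 25.1% were higher and 28.3% lower in this comparison. Of the 7 astrocyte markers 5 fell at P14 (22.2% of all features lower) and 5 rose at P21 (15.8% of all features higher). At P75, when the members rose, 4 of 7 astrocyte, 4 of 6 oligodendrocyte and 3 of 4 neuronal markers rose too (23.7% of all features higher). The astrocyte sums were then 36398 to 37865 in controls and 46675 to 55954 in exposed rats. Of 5 markers of amygdala and neighbouring tissue 2 rose and 1 fell in the exposed hippocampus at P7. There 2 rose at P14, 3 at P21 and 3 at P75. Over all features 25.1%, 16%, 15.8% and 23.7% were higher at these ages. The sums of these 5 markers at P75 were 2623 to 3205 in controls and 5082 to 5845 in exposed rats. Of 3 hippocampal markers 0 rose there at any age, and 1 fell at each of P7, P14 and P75. Over all features 28.3%, 22.2% and 18.6% were lower at those ages. In amygdala at P75, 5 of 7 astrocyte markers rose, where 9.35% of all features were higher and 11.8% lower. Of the markers of amygdala and neighbouring tissue 3 fell and 1 rose. Their sums were 15956 to 18265 in controls and 7836 to 11229 in exposed rats. Of 4 erythroid markers 2 fell there, with sums of 39733 to 44966 and 15020 to 27149. Of 8 choroid plexus markers in amygdala 1 rose at P7 and 2 rose at P21 (5.66% and 9.45% of all features higher). At P14 1 rose and 3 fell (16.5% higher and 19.3% lower), and at P75 0 were called. The choroid plexus sums at P21 were 1513 to 2015 in controls and 5893 to 6917 in exposed rats. No marker has a level of 0 on this scale, and the part of these cell types in the members' differences was not tested.

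In hippocampus the median differences of the wider pathway had the same signs as the members' medians, as did those of the brightest 10% of features. Of a list of 65 other autophagy and lysosome genes, 39 were measured. At P7, 24 of the 39 fell and 2 rose (median -0.73), at P14 18 fell and 2 rose (median -0.30), at P21 13 rose and 0 fell (median 0.29), and at P75 26 rose and 1 fell (median 0.49). Over all features 53.4%, 38.2%, 26.4% and 42.4% were called at these ages, and of the brightest 10% 75.4%, 62%, 55.2% and 76.3%. The other background shares and medians are those given above for the same comparisons. With the random probe as a covariate 3, 8, 0 and 0 of the 39 were called (10, 15, 1 and 3 at an unadjusted p under 0.05). In amygdala 3 rose at P7, 3 rose and 11 fell at P14, 2 rose and 9 fell at P21, and 7 rose and 5 fell at P75.

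By step, of 11 lysosomal genes, Tfeb among them, 8 fell at P7 in hippocampus, where 28.3% of all features were lower. There 7 of them rose at P21 and 9 at P75, with 15.8% and 23.7% of all features higher. Atp6v1h, a subunit of the proton pump that acidifies the lysosome, had the largest called change at P7, P14 and P75 there among those of the 39 above median brightness. It fell by 2.08 ± 0.20 at P7 (adjusted p = 6.86e-11) and by 1.36 ± 0.19 at P14 (adjusted p = 5.90e-07), then rose by 2.15 ± 0.19 at P75 (adjusted p = 1.27e-10) and, in amygdala, by 0.97 ± 0.14 at P75 (adjusted p = 2.33e-06). With the random probe as a covariate, its hippocampal calls at P7 (-0.84, adjusted p = 0.491) and P75 (1.23, adjusted p = 0.236) were lost. The gene of the regulator Tfeb was the only one of the 39 to fall in hippocampus at P75 (-0.55 ± 0.19, adjusted p = 0.0221), a call lost without control 2 or 5 (adjusted p up to 0.105). It was also lost with only the groups compared (adjusted p = 0.0728), by the methods' t-test (adjusted p = 0.116) and with the random probe as a covariate (-0.19, adjusted p = 0.911).

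Of the cargo receptors 6 of 8 fell at P7 and 6 of 8 rose at P75 in hippocampus. Of the initiation genes 3 of 4 fell at P7 and 3 of 4 rose at P75. Over all features 28.3% were lower at P7 and 23.7% higher at P75. Rab7a, a GTPase that guides fusion with the lysosome, moved the other way in hippocampus at P7 and P14, and it did not fall there at P75. It rose at P7 (0.58 ± 0.11, adjusted p = 1.84e-05) and P14 (0.36 ± 0.10, adjusted p = 0.00438). Both calls were lost with the random probe as a covariate (0.82, adjusted p = 0.157 at P7 and 0.45, adjusted p = 0.05002 at P14). The P14 rise did not pass without controls 1 to 3 (0.19, adjusted p = 0.225) or with only the groups compared (adjusted p = 0.0637). In amygdala Rab7a fell at P75 (-0.74 ± 0.11, adjusted p = 2.14e-06). The lysosomal membrane gene Lamp2 fell there at P14 (-0.94 ± 0.14, adjusted p = 2.80e-06), and Prkaa1, the catalytic subunit of the energy-sensing kinase that starts autophagy, fell at P21 (-1.03 ± 0.17, adjusted p = 3.16e-05). The largest rise at P21 in hippocampus was that of the protease gene Ctsd (0.75 ± 0.13, adjusted p = 5.62e-05). It did not pass with the random probe as a covariate (0.63, adjusted p = 0.798). Atg3, which transfers the coat proteins to lipid, led at P7 in amygdala (0.73 ± 0.21, adjusted p = 0.0274), a call lost without control 1 or 4 or exposed 2, 3 or 4 (adjusted p up to 0.0805), after quantile normalization (adjusted p = 0.134), with only the groups compared (adjusted p = 0.143) and by the methods' t-test (adjusted p = 0.177).

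**Figure D5:**
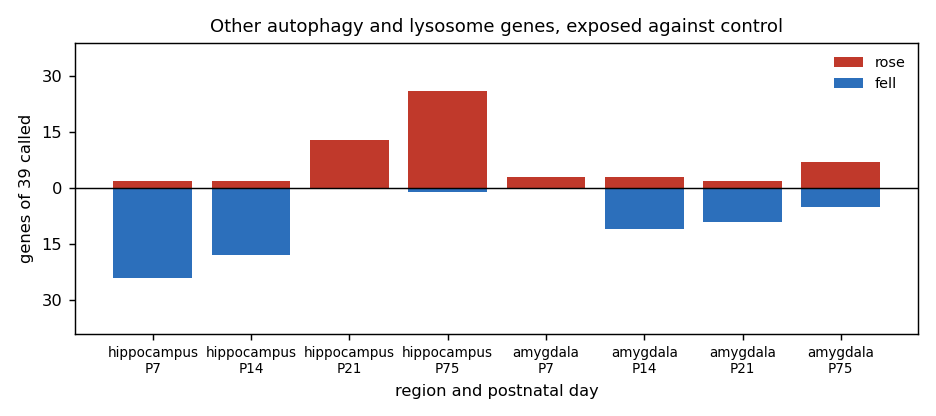
Number of the 39 other autophagy and lysosome genes that rose (red, upward) or fell (blue, downward) in exposed against control rats, for each region and postnatal day. In hippocampus the bars point down at P7 and P14, with 24 and 18 genes, and up at P21 and P75, with 13 and 26.

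The members' courses were compared over the 16 group means, each centred on its region. The means come from the same arrays as the results above and carry the same array measures, so the values describe these means only. Vmp1 was most like Becn1 (r = 0.94) and Tbc1d14 (r = 0.92) among the members, and least like Atg7 (r = -0.05). Over the 8 amygdalar means Vmp1 and Becn1 still ran together (r = 0.91), and Vmp1 and Gabarapl2 ran opposite (r = -0.83), where the 8 hippocampal means gave 0.57. The random probe ran against 9 of the 10 genes over the hippocampal means, with r from -0.66 for Gabarapl2 to -0.87 for Map1lc3a, and with Atg7 at 0.62. Over the amygdalar means r ranged from -0.60 for Vmp1 to 0.30 for Gabarapl2.

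Of 4881 genes of at least median brightness, the closest to Vmp1 were Cand1 (r = 0.990), Sars1, Armcx3, Vdac1 and Fam131b (all at or above 0.986). Tbc1d14 was nearest to Scarb2 (r = 0.973), Slc6a6, Nars1, Txnrd1 and Klhl7, and Map1lc3a to Prelid1 (r = 0.967), Sfxn1, Psma1, Cct5 and Sumo2.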

How the data were processed

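The authors deposited normalized probe-set intensity values on a linear scale, 1 table for 78 single-colour NimbleGen arrays. The normalization is not given in the sources used here. A median of 473 values recur between any pair of arrays from 1 region and 104 between regions, so levels were tested within a region only. Per the labels' protocols, RNA was isolated with TRIzol, linearly amplified, turned into double-stranded cDNA and labelled with Cy3. Per the file headers, 8 deposited comparison tables give a Bonferroni-corrected p-value (unpaired t-test) and an absolute fold change (a ratio). Their 312 per-array columns, 39 in each table, match no label and were not used.

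Here intensities were taken to log2 with no further normalization. Of 26419 features (1 random probe left out), 9747 were named by RefSeq (GRCr8, names only) and 41 by the comparison tables, and 16631 stayed unnamed. A gene is its feature with the highest mean. limma 3.58.1 (R 4.3.3) was fitted per region to 39 arrays with group as the only term and eBayes, tested two-sided and adjusted by Benjamini-Hochberg across the 26419 features (threshold 0.05), and to all 78 arrays for exposure by region. Members, lists, markers and tests were chosen with earlier results of these data known. Named pathway genes are the largest called rise and fall per comparison above median brightness (1 is not reported here), and likeness names 5 genes per chosen member. The scripts were tested on simulated data.

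Same-numbered control and exposed arrays did not deviate together (median r of -0.01 over 38 pairs, 0 above 0.1). Nor did same-numbered arrays of hippocampus and amygdala (median r of 0.006 over 39 pairs, 0 above 0.1). Such values show no pairing by number but cannot exclude that arrays share an animal. All arrays were treated as independent, also across regions in the fit of exposure by region. Alternatives were quantile normalization, a filter on the dimmer 50% of features, eBayes with trend and robust, fits of only the groups compared, a replicate block, the random probe as a covariate, the methods' t-test, the mean over a gene's features and leaving out each array. Subsets of the P7 exposed and P14 control arrays of hippocampus were added after seeing the data.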

Additional observations from a re-analysis of the deposited data

Results flagged for a closer look

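Of 160 sets of member and group, 8 held an array far from the rest of its group, as many as the 5% that chance gives. They were Map1lc3a in amygdalar P7 control 2 (12.18, the others 12.45 to 12.53), Map1lc3b in hippocampal P75 exposed 1 (10.15, the others 10.42 to 10.52), and Becn1 in amygdalar P21 control 2 (9.88, the others 9.57 to 9.62). Gabarap stood out in hippocampal P21 control 2 (11.02, the others 10.79 to 10.85) and P7 exposed 1 (11.08, the others 10.89 to 10.92). Gabarapl2 did so in amygdalar P7 exposed 2 (11.48, the others 11.33) and P21 exposed 1 (11.39, the others 11.05 to 11.14), and Atg5 in hippocampal P75 exposed 1 (6.78, the others 7.24 to 7.39).

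The exposure difference of the 7 tested members differed between ages for 5 in hippocampus (63.5% of all features) and 5 in amygdala (32.7%) by limma's F test. It differed between regions for 5 at P7 (49.4%), 5 at P14 (28.1%), 4 at P21 (37.6%) and 4 at P75 (36.9%) by limma's interaction term.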

How the results depend on the processing

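Counts below are of the 7 tested members unless the 39 other pathway genes are named, and counts at an unadjusted p under 0.05 stand in brackets after 0. With the random probe as a covariate limma called, by exposure in hippocampus, 1 at P7, 0 (0) at P21 and 0 (3) at P75, in amygdala at P7 0 (0), and of the 39, 3, 8, 0 (1) and 0 (3) in hippocampus and 0 (2) in amygdala at P7. It left 0 (1) for ageing in control hippocampus, 2 in control amygdala, 3 in the hippocampal age test and 2 each between regions at P7 and P21. Quantile normalization left 0 (1) in hippocampus at P21, 0 (1) in amygdala at P7, 2 for ageing in control amygdala, 3 in the amygdalar age test and 3 between regions at P7, and of the 39, 7 in hippocampus at P21 and 0 (5) in amygdala at P7. It turned Gabarapl2's ageing in control hippocampus to 0.18 (adjusted p = 0.0836). Gabarap between regions at P7 turned to 0.058 by it and to 0.14 by the random probe. Without the dimmer 50% of features 4 were called in hippocampus at P21 and 2 in amygdala at P7, and 5 of the list there. With only the groups compared, amygdala had 0 (2), 1 and 2 at P7, P14 and P75, 3 for exposed ageing, and 0 (10) and 4 of the 39 at P7 and P75. The methods' t-test gave 0 (11) and 5 of the 39 there, and 3 for exposed ageing. Without P14 controls 1 to 3 of hippocampus 5 were called. The causes were not tested.

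Without single arrays, counts were 1 to 3 in hippocampus at P21 (8 to 15 of the 39; exposed 4 decides the lowest), 0 to 1 in amygdala at P7 (0 without control 2 or 5 or exposed 2, 3 or 4), with 1 to 5 of the 39 (5 without control 3, 1 without control 4 or exposed 2, 3 or 4), 1 to 3 at P14 (1 without exposed 4), and 3 to 6 in the amygdalar age test (3 without P7 exposed 3 or P75 exposed 4). Other such counts stayed within 1.5 times. Of 140 gene results with a test, 30 lost, gained or turned a call without some array, and none of 36 untested ones moved by 1 SD. With the replicate block the counts stayed within 1.5 times (5 members at P7 in hippocampus), and 4 gene calls were lost, for Atg5 in amygdala at P21 (adjusted p = 0.0523) and in its age test (0.0654), Gabarapl2's ageing in control hippocampus (0.0524) and Becn1's in exposed amygdala (0.0547). The mean over features put Tbc1d14 in hippocampus at -2.33 at P7, -1.58 at P14 and -2.49 for ageing in controls, and in amygdala at P21 at 0.42.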
